A study of Xenopus tropicalis with 40 samples.

Results

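Retained introns are intervals that 1 transcript of a locus splices out and another keeps inside an exon. They were selected on measured values, the exon ends of a catalogue of transcripts assembled from embryos of the western clawed frog, Xenopus tropicalis. An intron counted as retained when an exon of another multi-exon transcript of the same locus began before it and ended after it. The catalogue held 264799 distinct introns at loci with at least 2 multi-exon transcripts, and 13927 of them were retained by this definition. Of 147879 introns at annotated loci, 6422 were retained, which is 4.34%, and they lay at 2163 of 7291 such loci, or 29.7%. Class u loci are loci whose transcripts all lay outside the annotated genes and carried the assembler's code u. There, 5634 of 106623 introns were retained, or 5.28%, at 1610 of 6589 loci, or 24.4%. The remaining 1871 retained introns lay at 376 other loci, and at 303 of these the most frequent kind of transcript overlapped an exon of a gene on the opposite strand.

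The study sequenced RNA with a poly(A) tail from whole embryos of an outbred stock, in 40 libraries of 23 stages that begin at the 2-cell embryo and end with tadpoles of stage 44-45. Clutch 1 gave 16 libraries and clutch 2 gave 24, and the labels name no treatment and no mutation. The libraries marked the second cDNA strand with dUTP, so the strand of the RNA was kept. All values below come from 1 catalogue pooled over both clutches and all stages, with 159469 transcripts at 31388 loci on 4044 scaffolds. The loci with at least 2 multi-exon transcripts included those of 11 keratin and epidermal genes, 20 skeletal muscle genes, 17 genes of a neuronal list, and 10 maternal and germ plasm genes. No value belongs to 1 library, stage or clutch, so there are no replicates, no depth is known, and when in development an intron was kept or removed was not analysed here. Because the exon ends themselves chose the introns, shares and lengths are given as a description, with Wilson 95% intervals that cover counting error only, and no difference was tested. Introns of 1 locus share transcripts and are not independent.

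An intron can stay in a finished, polyadenylated RNA in several known ways. In mammalian cells, RNAs with a so-called detained intron are held in the nucleus until splicing is completed or the RNA is degraded, and genes of splicing factors and their kinases are well known examples. In plants and animals, other retained introns reach the cytoplasm, where a stop codon inside them can expose the RNA to nonsense-mediated decay. Introns removed from the middle of a coding exon, named exitrons in Arabidopsis and human, shorten the protein when their length is a multiple of 3 and shift the reading frame otherwise. SR proteins bind exons and recruit the splicing machinery, while hnRNPs often act against it, and both families regulate splicing of their own RNAs.

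The retained introns were short. At annotated loci their median length was 102 bases, with quartiles of 73 and 235, against 1147 bases, with quartiles of 466 and 3030, for the other introns. At class u loci the median was 129 bases (82 to 270) against 1096 bases (432 to 2951). Of the retained introns of annotated loci, 49.5% were at most 100 bases long (48.3% to 50.8%), against 4.61% of the other introns (4.51% to 4.72%), and at class u loci the shares were 39.9% and 4.93%. The definition itself bears on this comparison, since an intron can lie inside an exon only if it is shorter than that exon.

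Within single loci the order was the same at most of them. At 2034 of the 2160 annotated loci with both kinds, or 94.2%, the median retained intron was shorter than the median other intron, and at 125 it was longer. At class u loci it was shorter at 1405 of 1561, or 90.0%. The longest retained introns reached 12186 bases at annotated loci and 9164 bases at class u loci. That of 12186 bases lay on scaffold GL999999, where 655 of 656 introns were retained. Whether the gaps on this scaffold are spliced introns is unknown. The annotated gene with the next longest was mcc, with 8911 bases.

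From 50 bases upward, the share of introns that were retained was smaller in each longer range at annotated loci. Of the annotated introns of 50 to 60 bases, 77.2% were retained (74.3% to 79.8%, 690 of 894). The share was 44.7% between 61 and 80 bases, 19.2% between 81 and 100 and 13.7% between 101 and 150. It was 3.92% between 301 and 500 bases, 1.60% between 501 and 1000 and 0.0978% above 5000, where 24 of 24548 introns were retained. Class u loci showed the same order, with 62.3% at 50 to 60 bases (58.6% to 66.0%), 20.6% at 81 to 100 and 2.16% at 501 to 1000. Below 50 bases, 266 of 603 introns at annotated loci and 18 of 20 at class u loci were retained.

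**Figure D1:**
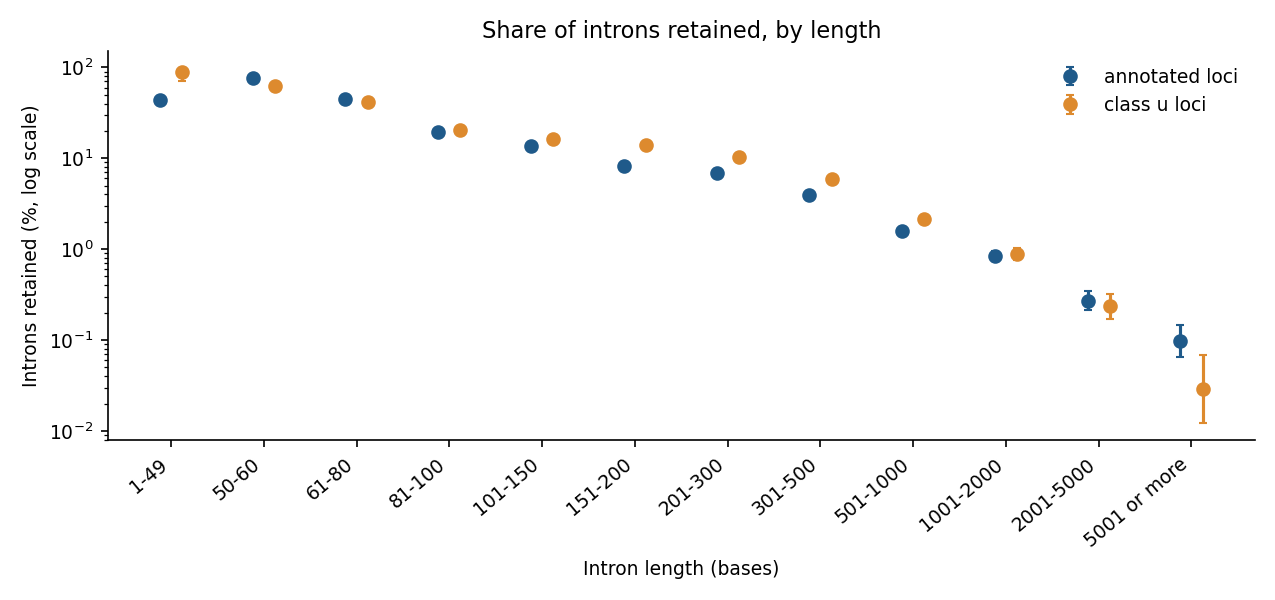
Percent of introns that were retained (log scale) in each range of intron length (bases), at annotated loci (blue) and class u loci (orange), with Wilson 95% intervals as bars where they are wider than the point. At annotated loci the share is 77.2% at 50 to 60 bases and 0.0978% above 5000 bases.

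The lengths of retained introns were multiples of 3 more often than those of the other introns. At annotated loci 2657 of 6422 retained introns, or 41.4%, were multiples of 3 (40.2% to 42.6%), against 33.4% of the other introns (33.1% to 33.6%). The other possible remainders after division by 3 held 28.5% and 30.1% of the retained introns. At class u loci the share was 43.0% (41.7% to 44.3%), against 33.4% of the other introns (33.1% to 33.7%). The difference was 7.98 points at annotated loci and 9.58 points at class u loci. In both kinds of loci it had the same sign in 8 of the 8 length ranges between 50 and 1000 bases, the smallest of which held 412 retained introns at annotated and 409 at class u loci. Not all of these differences were clear. At class u loci the shares at 50 to 60 bases were 49.1% (44.3% to 54.0%) against 42.1% (36.1% to 48.3%). At annotated loci those at 501 to 1000 bases were nearly equal, with 34.0% (29.7% to 38.6%) against 33.6%. Among longer introns of annotated loci the shares were 31.6% against 33.4% from 1001 to 2000 bases (26.2% to 37.6%, 253 retained introns), 17.7% against 33.6% from 2001 to 5000 (10.2% to 29.0%, 62 retained introns), and 37.5% against 33.0% above that (21.2% to 57.3%, 24 retained introns). At class u loci they were 37.9% against 33.3% and 43.2% against 33.3% in the same ranges, and none of the 5 retained introns above 5000 bases was a multiple of 3.

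The pattern was visible base by base. Between 51 and 99 bases, 15 of the 17 multiples of 3 held more retained introns than either neighbouring length, and for the other introns 6 of 17 did. The most frequent lengths of retained introns were 72 bases with 159 introns at 120 loci, 84 bases with 158 introns at 129 loci, and 66 bases with 155 introns at 102 loci. Among the other introns 125 were 72 bases long, 513 were 84 bases long and 64 were 66 bases long. At annotated loci the 72-base introns were led by c3orf15 with 5 and naca.2, which encodes a ribosome-bound subunit that meets nascent proteins, with 4. The 84-base introns were led by the kinesin gene kif22 with 10 and by hnrnpa1 with 3. Among the leaders for 66 bases were the SR protein gene srsf6, hnrnpa1 and spty2d1 with 3 each. Among class u loci, that on the minus strand of scaffold GL174768 held 12 of 72 bases, that on GL172668 held 9 of 66 bases, and those on GL173130 and GL174768 held 6 each of 84 bases.

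**Figure D2:**
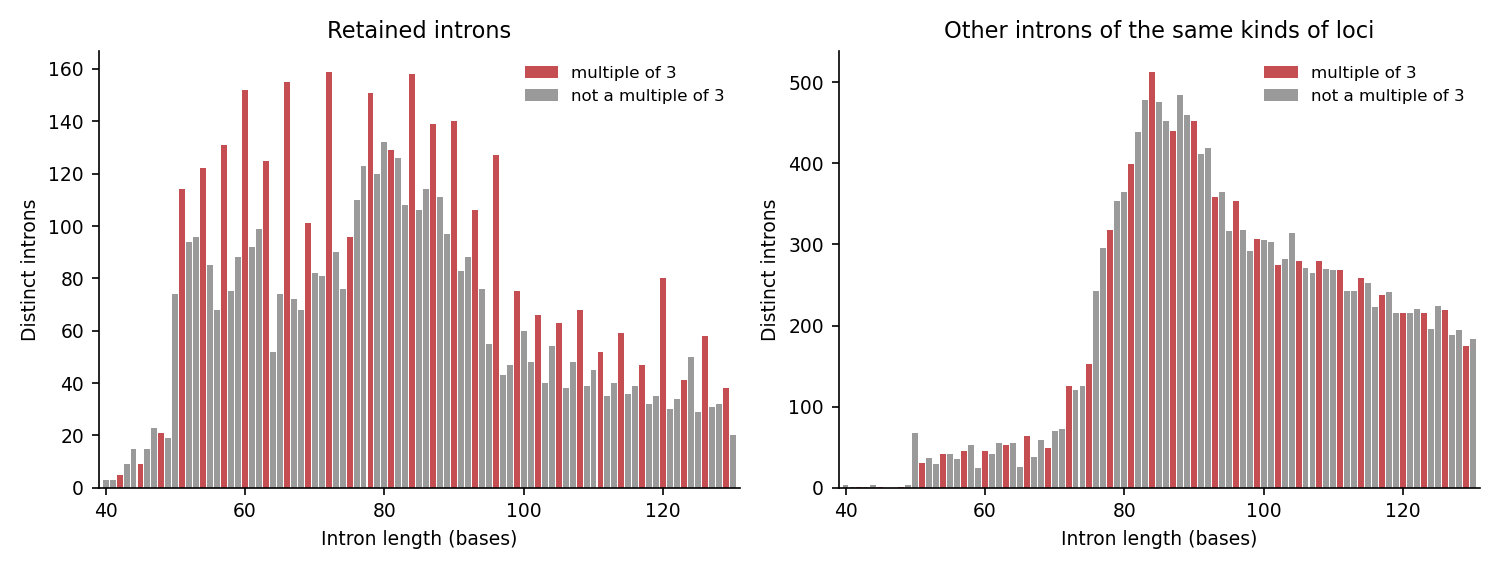
Number of distinct introns (vertical axis) of each length from 40 to 130 bases (horizontal axis), for retained introns (left) and other introns (right) of annotated and class u loci, with multiples of 3 in red. On the left most red bars between 51 and 99 bases stand above their neighbours, with 159 introns at 72 bases, 158 at 84 and 155 at 66, while on the right the bars climb to 513 introns at 84 bases with few such steps.

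Loci with many retained introns carried much of the excess. Where a locus had a single retained intron, the share of multiples of 3 was 37.1% at annotated loci (34.3% to 40.0%, n = 1103) and 42.4% at class u loci (39.0% to 45.9%, n = 773). At loci with 10 or more it was 45.9% (43.8% to 48.0%, n = 2195) and 47.0% (45.1% to 49.04%, n = 2423). Without those loci the difference from the other introns was 5.60 points at annotated and 6.68 points at class u loci. Counted per locus, the retained introns had the larger share of multiples of 3 at 1008 annotated loci and the smaller share at 1084, and at 711 and 712 class u loci. At a locus with 1 retained intron this share can only be none or all.

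The place of the retaining exon also went with the frame. At annotated loci 3576 retained introns, or 55.7%, lay only inside internal exons, and their median length was 85 bases. First exons alone held 810 (12.6%, median 139 bases), last exons alone held 1371 (21.3%, median 245 bases), and 665 lay in exons of more than 1 place. Multiples of 3 made up 43.3% of the introns inside internal exons only (41.6% to 44.9%), 37.3% of those inside first exons only (34.0% to 40.7%) and 37.2% of those inside last exons only (34.7% to 39.8%). Among introns that more transcripts kept than removed, the shares were 45.2% for internal exons (43.2% to 47.1%) and 34.9% for last exons (31.9% to 37.9%). Where more transcripts removed than kept the intron, the share for internal exons was 38.4% (34.8% to 42.0%, n = 691). The models do not mark coding sequence, so which of these exons were translated was not analysed here.

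Class u loci differed less between places. There 2422 retained introns (43.0%) lay inside internal exons only, 1065 (18.9%) inside first exons only and 1383 (24.5%) inside last exons only. Multiples of 3 made up 43.1%, 40.8% and 42.6% of them, with intervals that overlap. Which genes these loci belong to was not analysed here.

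**Figure D3:**
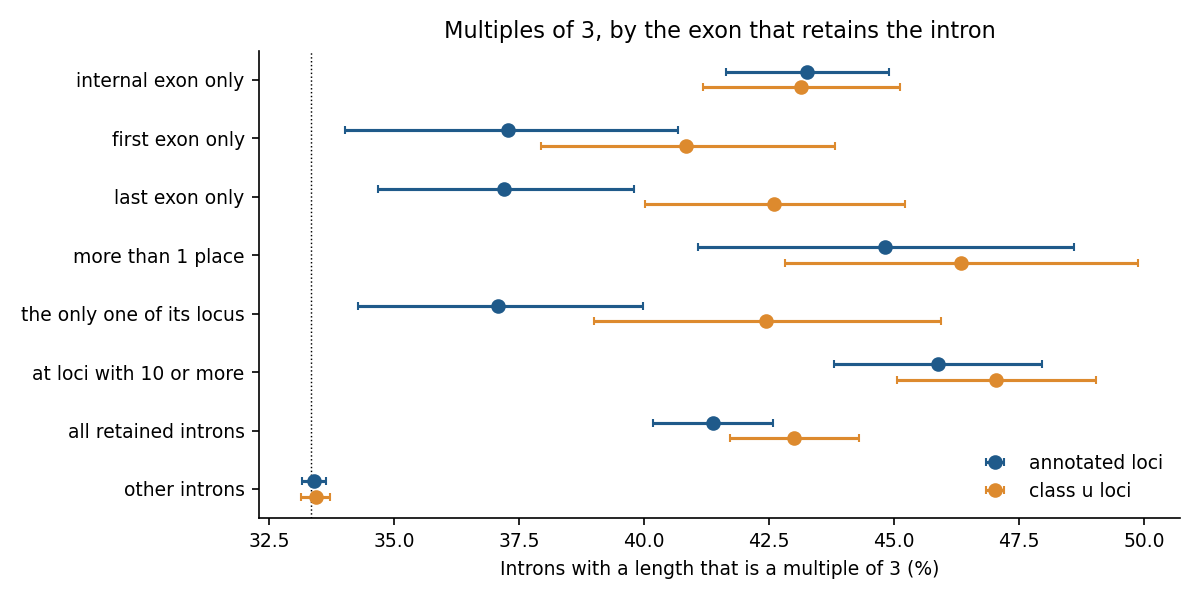
Percent of introns whose length is a multiple of 3 (horizontal axis), for retained introns by the exon that holds them, by the number of retained introns at the locus and in all, and for the other introns (bottom row). Points are shares and bars Wilson 95% intervals at annotated (blue) and class u (orange) loci; the dotted line marks an even split over the 3 remainders, on which the other introns lie at 33.4%, while all retained introns lie at 41.4% and 43.0%.

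Internal exons that held a retained intron were longer than internal exons in all. The definition bears on this comparison as well, since a retaining exon must be longer than the intron inside it. The 1838 internal exons of annotated loci with a retained intron inside had a median of 253 bases, against 108 bases over all 108609 internal exons, and at class u loci the medians were 353.5 and 119 bases. For 76.9% of the retained introns of annotated loci, and 56.3% at class u loci, some retaining exon had exactly the outer ends of the exon pair that flanked the intron in a splicing transcript. For the remaining introns every retaining exon began or ended elsewhere.

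Along the gene, retained introns of annotated loci lay nearer to the 3 prime end. Their median position was 0.625 on a scale with 0 at the 5 prime end of the locus and 1 at its 3 prime end, against 0.563 for the other introns. The last part of the locus on this scale cut into 3 held 46.3% of them (45.1% to 47.6%), against 38.8% of the other introns. The middle part held 25.6% against 33.7%, and the first part 28.1% against 27.5%. At 1305 annotated loci the median retained intron lay nearer to the 3 prime end than the median other intron, and at 855 nearer to the 5 prime end. Class u loci did not share this order over all introns, with a median of 0.538 against 0.580 and 38.7% against 40.6% in the last part, although the retained introns lay nearer to the 3 prime end at 871 loci and nearer to the 5 prime end at 690.

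For most retained introns the spliced form was the rarer one in the catalogue. At annotated loci the median retained intron was spliced out by 1 transcript and kept by 6, and at class u loci by 1 and 4. Only 1 transcript removed it in 59.1% of the retained introns of annotated loci (57.9% to 60.3%), against 34.3% of the other introns, and in 64.0% against 35.2% at class u loci. More transcripts kept than removed the intron in 71.0% of cases at annotated and 64.7% at class u loci. The opposite held for 16.4%, or 1056 introns, and 15.1%, or 851. Transcript numbers count assembled structures and say nothing of RNA amounts.

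At annotated loci, retained introns with more transcripts on both sides had the larger share of multiples of 3. With at least 2 transcripts each way, 1954 retained introns remained there, and 45.5% of them were multiples of 3 (43.4% to 47.8%). With at least 5 each way there were 381, of which 49.6% were (44.6% to 54.6%). At class u loci the corresponding shares were 43.2% of 1508 and 40.8% of 306 (35.5% to 46.4%). More splicing transcripts than retaining ones did not go with a larger share. At annotated loci, multiples of 3 made up 38.8% of introns that more transcripts removed than kept (35.9% to 41.8%, n = 1056). They made up 42.1% of those that more transcripts kept (40.7% to 43.6%). At class u loci these shares were 38.5% and 45.0%. The deposited table gives each transcript a relative weight of at most 1. Its mean was 0.632 for transcripts that kept an intron and 0.638 for those that removed it, over 6289 introns of annotated loci, and at class u loci both weights were equal for 4099 of 5634 introns.

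Retained introns were unevenly spread over loci. Of the 2163 annotated loci with any, 1103 had 1, and the mean was 2.97. The 108 loci with 10 or more held 2195 retained introns, or 34.2% of all, and at class u loci 113 such loci held 2423, or 43.0%. Many overlapped: 62.4% of the retained introns of annotated loci and 69.3% at class u loci shared bases with another retained intron of the locus. Loci with more transcripts had one more often. A retained intron was present at 14.5% of annotated loci with 2 to 5 multi-exon transcripts, 29.7% with 6 to 10, 44.3% with 11 to 20, 64.3% with 21 to 50 and 78.5% with more. At class u loci the shares were 13.3%, 31.5%, 42.5%, 66.2% and 72.8%.

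Among loci with 1 fully named gene, hnrnpa1 had the most retained introns. This gene encodes an abundant RNA-binding protein that represses exons and had 593 multi-exon transcripts. Its 89 retained introns were 43 to 174 bases long with a median of 80, all lay inside internal exons, and 52 were multiples of 3. They lay on the minus strand at GL172797:1977195-1977643, and 80 of them lay inside 1 exon of 195 bases at GL172797:1977467-1977661. An exon with exactly these ends was carried by 3 transcripts, and exons with other ends kept these introns too. Those 80 used 21 different lower and 32 different upper end positions, so that many introns shared an end. The best supported was 87 bases long, removed by 23 transcripts and kept by 67, while 47 of the 89 were removed by 1 transcript only.

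The same arrangement was seen at fbl, which encodes the nucleolar methyltransferase fibrillarin. It had 47 retained introns with a median of 71 bases, 30 of them multiples of 3, and 45 lay inside an internal exon of 180 bases at GL173709:141391-141570, with 18 lower and 19 upper ends. At the joined locus of fus, an RNA-binding protein gene, and prss8, a serine protease gene, 103 retained introns had a median of 75 bases, and 45 were multiples of 3. Of these, 31 lay inside an internal exon of 196 bases that 49 transcripts carried. At hnrnpu, which encodes a nuclear RNA-binding protein, 26 of 32 retained introns lay inside an internal exon of 478 bases. That exon was carried by 1 transcript, and the exon of fbl by 9. All 32 introns of hnrnpu lay inside internal exons, and 26 of them also lay inside first exons.

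Some genes had retained introns of regular length. At eif3a, which encodes the largest subunit of translation initiation factor eIF3, 34 of 40 retained introns were multiples of 3. Of the 40, 33 lay inside an internal exon of 992 bases at GL173241:505974-506965, with 6 introns of 60 bases, 4 of 180 and 3 of 90. That exon was carried by 5 transcripts. At kif22, which encodes a kinesin that moves chromosome arms, 42 of 53 were multiples of 3. Of the 53, 44 lay inside a last exon of 5875 bases that 1 transcript carried. Counting the exons of every transcript, 48 of the 53 lay inside internal exons. There were 10 of 84 bases, 8 of 126, 7 of 210 and 5 of 168, all multiples of 42. At arhgap33, which encodes a GTPase-activating protein, 23 of 34 were multiples of 3, with 6 introns of 57 bases, 5 of 171 and 4 of 114. At spty2d1, which encodes a histone chaperone, 21 of 25 were multiples of 3 and all 25 lay inside a first exon of 1248 bases. That exon was carried by 1 transcript and began at base 1 of scaffold GL179166, so whether it is the true first exon is unknown.

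Multiples of 3 were a smaller part of the retained introns at other genes. At krt18, a keratin gene of simple epithelia, 10 of 36 retained introns were, with a median length of 54 bases. Of the 36, 17 lay inside a first exon of 436 bases that 2 transcripts carried. Counting the exons of every transcript, 32 of the 36 lay inside internal exons. At pou2f1, which encodes the transcription factor Oct1, 10 of 35 were multiples of 3, and 28 lay inside a first exon of 927 bases, 7 of them 88 bases long. That exon was carried by 1 transcript. At hsp90ab1, a cytosolic chaperone gene, 13 of 32 were multiples of 3, and at col18a1, a basement membrane collagen gene, 12 of 26 were. Over the 108 annotated loci with 10 or more retained introns, the median share of multiples of 3 was 40.9%. It was at least 80% at 12 of them and below 1 in 3 at 32, so the loci ranged widely.

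**Figure D4:**
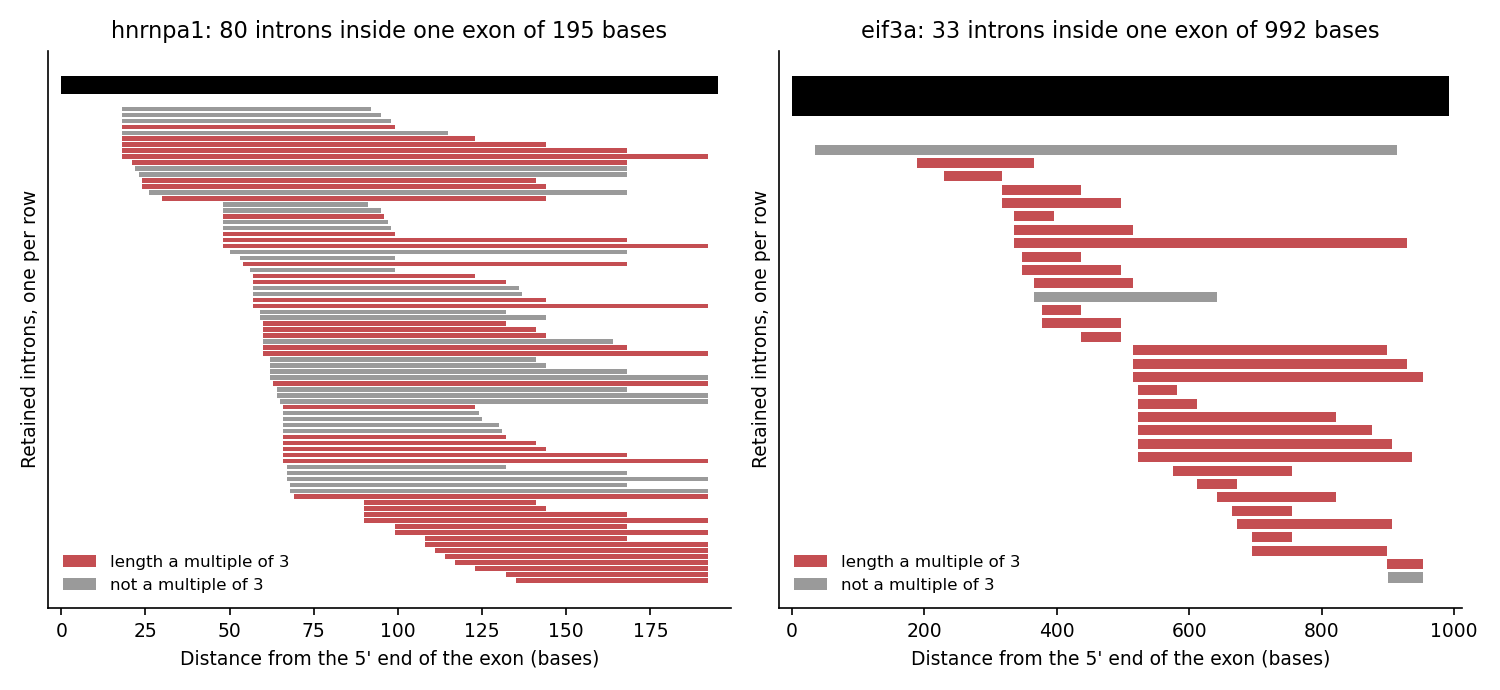
Retained introns (thin bars, one per row) inside the exon (black) of hnrnpa1 with 80 of them and of eif3a with 33, by distance from the 5 prime end of the exon in bases; red marks lengths that are multiples of 3. At hnrnpa1 a few end positions recur in many combinations, and at eif3a 60-base and 180-base introns are spread along the exon.

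Regular lengths were sought at all loci with 10 or more retained introns by taking, for each locus, the unit between 10 and 250 bases with the most exact multiples in excess of 1 in as many bases as the unit has. At least 1 in every 2 retained introns was a multiple of the unit at 16 of 108 annotated and 29 of 113 class u loci, and the unit was itself a multiple of 3 at 13 and 14 of those. The unit was fitted to the same lengths, so these counts describe the loci, and the loci below were chosen after their lengths were seen. At glyr1, 17 of 17 retained introns were multiples of 30 bases, from 60 to 360, all inside last exons. At c3orf15, 21 of 21 were multiples of 36 bases, from 72 to 576. At c2orf18, 20 of 21 were multiples of 39, among them 9 of 78 bases and 7 of 234. At ptrf, which encodes the caveola coat protein cavin-1, 12 of 13 were multiples of 27.

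At ubc, the polyubiquitin gene, which is known to encode ubiquitin units head to tail without spacers, 16 of 16 were multiples of 228 bases, 12 with 228 and 4 with 456. A unit need not keep the frame: at c11orf51 11 of 15 retained introns were multiples of 61 bases, and at dnz1 9 of 10 were multiples of 59, with 1 multiple of 3 at each gene. At pld2, a phospholipase D gene, 8 of 11 were multiples of 31.

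Class u loci held the same kinds of locus. The minus strand of GL174768 had 58 retained introns from 19512 to 20207, of which 58 were multiples of 3 and 57 multiples of 12, with 12 of 72 bases, 8 of 60 and 8 of 96. The plus strand of GL173672 had 43, of which 33 were multiples of 33. The 4 class u loci with the most retained introns were less regular by exact multiples of the fitted unit. Lengths a base off a multiple were not counted. On the plus strand of GL173640, introns of 79, 80, 81, 119, 120 and 121 bases lay inside the same first exon. The minus strand of GL173345 had 135 between 385736 and 387096, with 156 multi-exon transcripts, a median length of 95 bases and 28 multiples of 3. The minus strand of GL173640 had 84 and its plus strand 76, with 31 and 27 multiples of 3, over positions that overlap. The minus strand of GL174920 had 67, 10 of them 52 bases long.

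**Figure D5:**
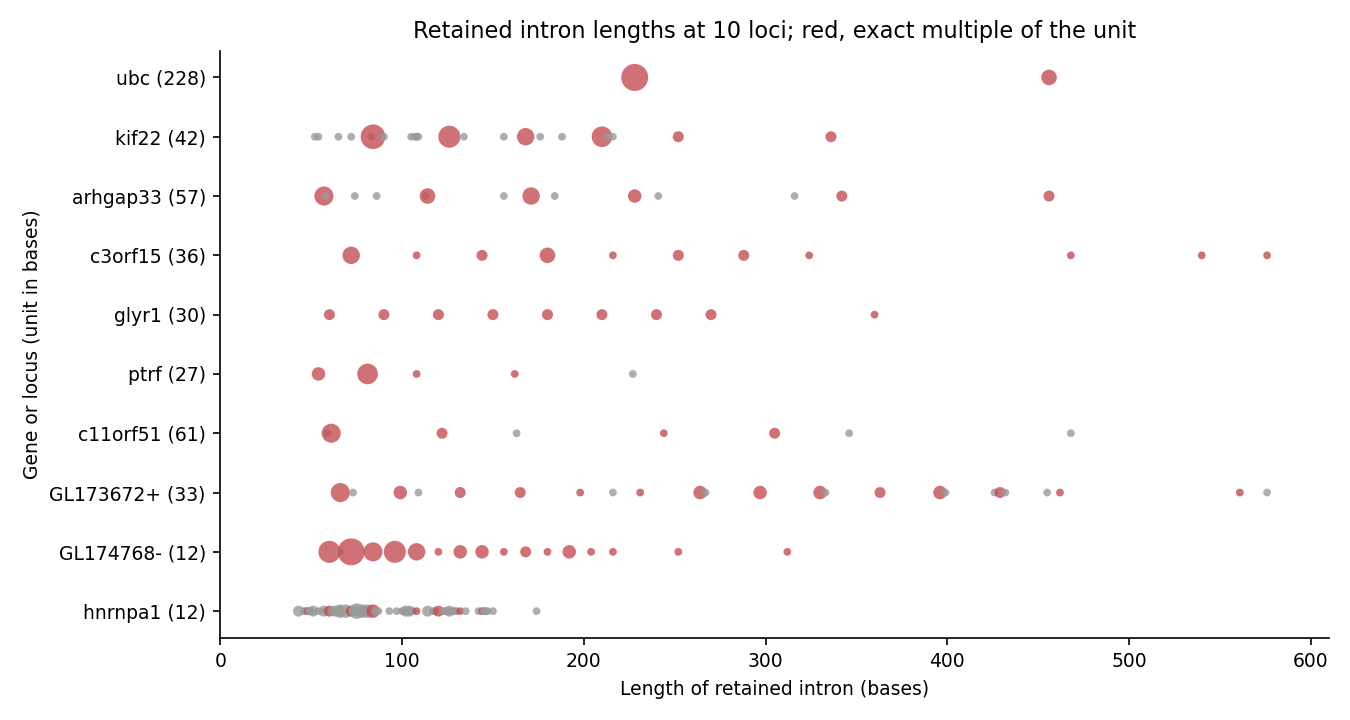
Lengths of the retained introns (bases) at 10 genes and loci, with the fitted unit in brackets; the area of a point grows with the number of introns of that length, and red marks exact multiples of the unit. At ubc, c3orf15 and glyr1 every point is red, at kif22 34 of 53 introns are multiples of 42, and at hnrnpa1, shown for contrast, 13 of 89 are multiples of 12.

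Retained introns were also counted over lists of genes with a shared role. Over all 7297 annotated genes with introns at loci with at least 2 multi-exon transcripts, 29.2% had a retained intron among their own introns, and the median number of transcripts at their loci was 6. SR proteins and hnRNPs had one at 18 of 30 genes. Of their 1950 introns 354 were retained, or 18.2%, against 4.20% over all genes. Of the 354, fus held 103 and hnrnpa1 held 89. The list's median of 38.5 transcripts per locus was above that of all genes, and among annotated loci with 21 to 50 transcripts 64.3% had a retained intron. Beside fus and hnrnpa1, srsf2 had 54, from 43 to 551 bases long. One srsf2 intron of 433 bases at GL172814:1619686-1620118, inside last exons, was removed by 22 transcripts and kept by 24. The splicing regulator genes hnrnpu, srsf1, srsf6 and hnrnpa2b1 followed with 32, 20, 11 and 10. Genes of a list beyond its first 3, and the single introns given for list members, were chosen after their values were seen.

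A list of splicing kinase genes and of genes known for detained introns in mammals had retained introns at 8 of 16 genes, or 50%. The share over all genes was 29.2%. The list had a median of 18.5 transcripts per locus, and 44.3% of annotated loci with 11 to 20 transcripts had a retained intron. None was found at clk1, clk3, srpk1, ogt, ddx17, snrnp70, mdm4 and gabbr1. At ddx5, an RNA helicase gene, 9 were retained, and at GL173616:137801-137882 an intron of 82 bases was removed by 66 transcripts and kept by 2. At sf1, which encodes the branch point binding protein, 9 were retained, among them an intron of 81 bases removed by 31 transcripts and kept by 7. At mat2a, which encodes the enzyme that makes S-adenosylmethionine and has a detained intron in mammals, 7 were retained. One of them, of 440 bases at GL172666:1675578-1676017 inside a last exon, was removed by 9 transcripts and kept by 7. At clk2, a kinase of SR proteins, an intron of 74 bases inside a last exon was removed by 28 and kept by 1. Core spliceosome proteins had one at 12 of 23 genes, or 52.2%. Their list had a median of 10 transcripts per locus, and 29.7% of annotated loci with 6 to 10 transcripts had a retained intron. This list was led by the U5 GTPase gene eftud2 with 9, prpf6 with 6 and puf60 with 5.

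Ribosomal protein genes were close to all genes, with a retained intron at 22 of 67, or 32.8%, and 3.34% of their introns retained, against 4.20% over all genes. The list had a median of 14 transcripts per locus, and 44.3% of annotated loci with 11 to 20 transcripts had a retained intron. Its leaders rps3 and rpsa had 7 each and rpl13 had 4, all inside internal exons and none over 87 bases. Collagen genes had one at 5 of 8, with 26 at col18a1, 13 at col2a1 of cartilage and notochord and 7 at col1a2, and 4.20% of their introns were retained. The list was matched by the symbols of the models, so these counts leave out LOC496414, col1a1 in RefSeq, where 24 of 981 introns were retained. Keratin and epidermal genes had one at 9 of 11 and 12.8% of their introns retained, led by krt18 with 36, krt8 with 23 and krt12 with 19, of which krt8 and krt12 lie at loci that join several genes. Skeletal muscle genes had one at 10 of 20, or 50%. They were led by the creatine kinase gene ckm with 18, the calcium pump gene atp2a1 with 14 and the myosin heavy chain gene myh4 with 10.

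A list of cell cycle genes had one at 14 of 30, or 46.7%. It held mitotic regulators and also genes of earlier phases, such as cdk4 and the replication gene mcm7. In this list incenp, which encodes the scaffold of the chromosomal passenger complex, had 22, wee2 had 5, and aurka, mcm7 and fzr1 had 3 each. At fzr1, which encodes an activator of the anaphase-promoting complex, introns of 86 and 83 bases were removed by 22 and 21 transcripts and kept by 1 each. The list of neuronal genes had one at 3 of 17, or 17.6%, with 2 at rbfox2 and 1 each at stx1a and celf1. Of these 3, rbfox2 and celf1 are not particular to neurons. Maternal and germ plasm genes had one at 2 of 10, with 5 at nanos1 and 2 at ddx4. Hox genes had one at 2 of 7, an intron of 402 bases at hoxb3 and one of 50 bases at hoxb9, and of the 3 polyubiquitin and ubiquitin fusion genes ubc had one. Like krt8 and krt12, the list members fus, srsf1, srsf2, ddx5, rpsa, ckm, wee2, rbfox2, celf1 and ubc lie at loci that join several genes. Over all genes 29.2% had a retained intron, with a median of 6 transcripts per locus. The lists differ in transcripts per locus. Medians were 10.5 for cell cycle, 12 for neuronal, 14 for ribosomal protein and 22.5 for skeletal muscle genes. They were 6 for maternal and germ plasm, 28 for Hox, 39 for keratin and epidermal and 79.5 for collagen genes. Of annotated loci with 6 to 10 transcripts 29.7% had a retained intron, and 44.3% with 11 to 20. The share was 64.3% with 21 to 50 and 78.5% with more. The part of transcript number in the shares of the lists was not tested.

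Single introns ranged from mostly kept to mostly removed. The intron with the most retaining transcripts was 173 bases long, at the gene named LOC496414, col1a1 in RefSeq, where 676 transcripts kept it and 1 removed it. At the locus that joins krt12 with other keratin genes, an intron of 57 bases was kept by 497 and removed by 3, and at hnrnpa1 one of 63 bases was kept by 328 and removed by 1. The opposite case was an intron of 92 bases at tulp3, which encodes a ciliary trafficking protein, at GL172773:1036233-1036324. It was removed by 143 transcripts and kept by 4, and introns of 90 bases at hsp90ab1, 78 bases at sptan1 and 81 bases at polq were removed by 110, 106 and 106 and kept by 1, 1 and 3. These introns and the next were chosen after their values were seen.

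Introns with many transcripts on both sides are those where the catalogue holds both forms well. At the krt12 locus an intron of 401 bases, at GL173290:162466-162866, was removed by 83 transcripts and kept by 407. At fus, one of 63 bases was removed by 33 and kept by 73. At wnk1, a kinase gene of ion transport, one of 51 bases was removed by 31 and kept by 60, and at nucks1, which encodes a nuclear phosphoprotein, one of 569 bases was removed by 27 and kept by 80. At LOC100216130, tcof1 in RefSeq, which encodes the nucleolar protein treacle, one of 177 bases inside a last exon was removed by 41 and kept by 174. At incenp an intron of 87 bases, at GL172942:117416-117502, was removed by 91 transcripts and kept by 11.

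Long retained introns were rare. The longest of annotated loci, of 12186 bases, lay at LOC100127682 on scaffold GL999999, where nearly every intron was retained. What this scaffold is was not analysed here, so this gap may not be a spliced intron. The next at annotated loci were one of 8911 bases at mcc, a gene named for its mutation in colorectal cancer, removed by 4 transcripts and kept by 8, and one of 5587 bases at mgat5, which encodes an N-glycan branching enzyme, removed by 1 and kept by 6. All 3 lay inside last exons. Just inside the definition, where the retaining exon went at most 10 bases beyond the intron on its nearer side, were 58 retained introns of annotated loci and 105 of class u loci. Just outside it, with an exon that missed covering the intron by at most 10 bases, were 135 and 308 introns.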

How the data were processed

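Bowtie, TopHat and Cufflinks are named, per the submitters' processing notes, with no version; a genome build and an annotation are not given there or in the labels. The authors deposited 1 set of gene models, with scaffold, strand and exon ends, and 1 table with a score headed FPKM, a coverage signal and a transcript length. The deposited score never exceeds 1, equals 1 in 58.9% of 167756 rows and is no abundance; it is called relative weight. The deposited coverage signal, at most 10.2, was not used. Depth is unknown.

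Introns were the gaps between successive exons of transcripts with at least 2 exons, counted once per locus, strand and pair of ends, with positions counted from 1. Loci with a transcript that matched, extended or overlapped an annotated gene on its strand counted as annotated. All analysis used Python 3.11.15 with pandas 2.3.3, and Wilson intervals came from statsmodels 0.14.6. The calling was checked on simulated loci.

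Members and gene lists were chosen with earlier results of these data known. Named genes were, at loci with 1 fully named gene, the 12 with the most retained introns, the 4 class u loci with the most, 3 members per list, the 3 annotated genes with the longest retained intron, the 3 with the most retaining transcripts for 1 intron, and the 3 most frequent lengths with their loci. A gene that this rule names is not reported here. Gene names matched RefSeq's table of UCB_Xtro_10.0 for 98.8% of 8329 symbols; that table gave names only. Splice site sequences were not analysed here.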

Additional observations from a re-analysis of the deposited data

How the results depend on the processing

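No paired analysis was possible because no column of the deposited tables belongs to a library, stage or clutch. Every number rests on transcript models, not on reads, so depth and the share of RNA with an intron are unknown. Of the values recomputed, only the excess of multiples of 3 is a difference with a sign, and it stayed positive in every setting. The lengths and positions of the other introns were not recomputed, so the signs of those differences were not checked. The excess of multiples of 3 moved in 4 of 11 settings at annotated and 3 of 10 at class u loci. The share of introns retained moved in 8 of 11 and 6 of 10. Of the values tried, 54 moved by more than their interval, or by over 1.5 times for counts. The cause was not tested beyond what each setting leaves out. Values are for annotated and class u loci in that order. The share inside internal exons below counts introns of annotated loci that an internal exon of any transcript kept. It was 65.9% in the main setting, while the 55.7% given above counts introns inside internal exons only.

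Where the retaining exon had to share both outer ends with a splicing transcript, class u loci kept 3171 retained introns, the shares retained were 3.34% and 2.97%, the median lengths 94 and 111 bases, the excess of multiples of 3 at class u loci 7.35 points, the annotated median position 0.667 and the share inside internal exons 69.2%. With internal retaining exons alone there were 4233 and 3157 retained introns (2.86% and 2.96%) with medians of 88 and 104 bases and an annotated excess of 9.99 points. With transcripts of a relative weight of 1, annotated loci kept 2216, the shares were 3.82% and 5.04%, and 68.9% lay inside internal exons. With 2 transcripts each way there were 1954 and 1508 (1.32% and 1.41%), with medians of 98 and 105 bases, an annotated excess of 12.0 points, a position of 0.671 and 68.0% inside internal exons.

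Above 100 bases there were 3240 and 3387 (2.34% and 3.41%), with medians of 234 and 229 bases, a position of 0.646 and 51.7% inside internal exons. Without loci that join genes the annotated share was 4.17% and 64.7% lay inside internal exons. With each locus counted once the annotated share was 3.60%, the medians 117.5 and 145.5 bases, the excess 4.98 and 7.60 points, the position 0.639 and 52.7% lay inside internal exons. With assembled transcripts alone no value moved.

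The 3 further settings below were chosen after seeing the data. Without scaffold GL999999, or without introns whose ends were also found on the opposite strand, no value moved. Without loci with 10 or more retained introns there were 4227 and 3211 (3.08% and 3.18%), with an annotated median of 107 bases, an excess of 5.60 and 6.68 points, a position of 0.644 and 57.9% inside internal exons.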

Other observations

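Loci that were neither annotated nor class u had the largest share of retained introns of the 3 kinds, at 1871 of 10297, or 18.2%, and at 376 of 964 loci, or 39%. Their retained introns had a median of 219 bases against 796 bases for the other introns, and 37.6% were multiples of 3 (35.4% to 39.8%) against 33.8% (32.8% to 34.8%). Of these retained introns 501 lay on 1 scaffold. GL999999, with models from base 1 to base 17609, held 403 transcripts at 2 loci, and 655 of its 656 introns were retained, with a median of 620 bases. Of the 655, 154 lay at LOC100127682, where 51 were multiples of 3, and 501 at the other locus. No retained intron of this scaffold had the same ends on the opposite strand.

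Elsewhere a few introns were found with identical ends on both strands. This held for 15 retained introns of annotated loci, or 0.234% (0.142% to 0.385%), against 0.0304% of the other introns, and for 63 at class u loci, or 1.12% (0.875% to 1.43%), against 0.0723%. The minus and plus strands of GL173010 both had retained introns in multiples of 23 bases, with 13 of 15 on the minus strand and 8 of 11 on the plus strand, at overlapping positions from 248141 to 279417 and from 248233 to 248830. None of the retained introns at either of these loci had the same ends on the opposite strand.

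Retained introns shared an end with another intron of the locus less often than other introns at annotated loci, at 57.3% (56.1% to 58.5%) against 67.4% (67.2% to 67.6%), while at class u loci the shares were 60.4% and 60.6%. Very short gaps also counted as introns: 4.14% of the retained introns of annotated loci were below 50 bases, against 0.238% of the other introns. Examples are those of 9 bases at cldn4, a tight junction gene, 11 bases at ptbp1, a repressor of exons, and 12 bases at cdc6, a replication licensing gene.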
